A study of Drosophila melanogaster with 2 samples.

Results

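Bab2 (bric-a-brac 2) summits that lay inside an intron and close to a gene start in Drosophila melanogaster embryos are described here. A peak was counted as TSS-proximal intronic when its summit lay 501 to 3000 bp from the nearest transcription start site (TSS) of a protein-coding gene, inside a protein-coding gene and in no exon of a protein-coding transcript. Of the 4720 peaks in the authors' reproducible peak list on the dm6 assembly, 864 met this rule, or 18.3% (Wilson 95% interval 17.2% to 19.4%). The other peaks were 839 TSS-distant intronic (over 3000 bp from a TSS), 2190 promoter (within 500 bp of a TSS), 83 exonic and 744 intergenic. The rule used position only, and no signal, replicate value or sequence placed a peak in this class. The authors had already selected the whole list for reproducibility between the replicates, and its lowest signal was 76.1. Signals and replicate values below are therefore those of selected peaks.

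The data are chromatin immunoprecipitation followed by sequencing (ChIP-seq) with an antibody to GFP. The flies were a stable transgenic line whose Bab2 carries GFP at its C-terminal end, and whole embryos of both sexes, 0 to 24 hours old, were pooled. The 2 biological replicates, labelled as replicates 2 and 3, form 1 group, and a peak sums over all cell types and embryonic stages of the collection. No mock or untagged sample was analysed here, so no comparison between groups of samples can be tested. Comparisons between classes of peaks are given as counts with 95% intervals that cover counting error only, and the differences were not tested against the spread between samples.

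Bab2 is a transcription factor with a BTB domain, through which such proteins pair with each other, and a Bab conserved domain that contacts A- and T-rich DNA. It is best known from the patterning of leg segments, ovarian stalks and abdominal pigmentation. Introns close to a gene start, and the first intron above all, are common places for enhancers and for alternative start sites in flies.

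The sequences at 6 of the 7 strongest TSS-proximal intronic summits, 50 bp to either side, show what such a place looks like. They are from the release 6 (dm6) genome sequence, plus strand, 5′ to 3′. Capitals mark, on either strand, any of 5 words described below: the forkhead-type word TGTTTA, the A- and T-only words TAATAA or TATATA, the GATA-type word AGATAA, and the word TGTAAA with its reverse complement TTTACA.
ush, chr2L:481007-481107: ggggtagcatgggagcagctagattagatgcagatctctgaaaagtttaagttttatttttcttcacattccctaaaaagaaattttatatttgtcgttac
CG11050, chr2L:6612656-6612756: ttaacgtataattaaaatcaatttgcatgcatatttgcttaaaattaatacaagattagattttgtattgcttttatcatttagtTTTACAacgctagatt
Lk6, chr3R:11761000-11761100: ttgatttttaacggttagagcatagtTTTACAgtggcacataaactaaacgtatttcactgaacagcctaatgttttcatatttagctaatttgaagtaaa
CG32772, chrX:4910309-4910409: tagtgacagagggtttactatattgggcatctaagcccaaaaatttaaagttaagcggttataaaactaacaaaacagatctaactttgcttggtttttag
CG9663, chr2L:3302121-3302221: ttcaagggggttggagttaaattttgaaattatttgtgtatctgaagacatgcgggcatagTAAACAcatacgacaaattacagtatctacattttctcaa
Tlk, chrX:3742176-3742276: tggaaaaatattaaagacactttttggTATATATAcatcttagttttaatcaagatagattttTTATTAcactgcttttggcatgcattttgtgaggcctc
Their A and T content lay between 66.3% (ush and CG9663) and 78.2% (CG11050). The ush and CG32772 windows held none of the 5 words.

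A seventh window shows a pattern beside the summit that is described further on. It ranks 12 by signal among the TSS-proximal intronic summits and has the word ACAGTG on both sides, each copy read towards the summit. The capitals mark ACAGTG before the summit and its reverse complement CACTGT after it, on the plus strand in the first intron of NFAT.
NFAT, chrX:13640362-13640661: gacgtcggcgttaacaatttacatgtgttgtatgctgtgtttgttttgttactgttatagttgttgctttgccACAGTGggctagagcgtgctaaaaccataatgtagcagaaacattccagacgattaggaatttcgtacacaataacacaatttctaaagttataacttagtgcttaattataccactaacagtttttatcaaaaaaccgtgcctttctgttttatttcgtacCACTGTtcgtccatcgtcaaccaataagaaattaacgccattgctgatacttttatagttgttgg

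Intronic sequence near a TSS held more summits per unit of length than intronic sequence further away. TSS-proximal introns covered 15.2 Mb and held 56.7 summits per Mb (exact Poisson interval 53.02 to 60.7). TSS-distant introns covered 37.4 Mb and held 22.4 per Mb (20.9 to 24.0). Promoter sequence held 143 per Mb (137 to 149), exons 3.22 and intergenic sequence 18.5, against 35.3 over all arms.

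The density fell step by step with distance. In steps of 500 bp it was 75.9 per Mb up to 1000 bp (302 summits), 58.2 from there to 1500 bp (199), 56.1 to 2000 bp (166), 45.0 to 2500 bp (116) and 35.3 to 3000 bp (81). The intervals of the first and the last step (67.6 to 84.9 and 28.1 to 43.9) did not overlap, while neighbouring steps from 1000 bp on did. Across the lower bound of the rule the intervals did not overlap: intronic sequence 250 to 500 bp from a TSS held 105 summits per Mb (91.8 to 120.4). Across the upper bound they did. Sequence beyond 3000 bp held 38.6 (to 5000 bp), 28.4 (to 10000 bp) and 13.2 (over 10000 bp). The peaks just inside the lower bound were in CG9380 (501 bp, signal 85.7), ACC (503 bp, 101.4) and pAbp (505 bp, 183), and those just outside it in CG31523 (500 bp, signal 322), CG3638 (499 bp, 193) and the overlapping genes omd and flfl (499 bp, 215). At the upper bound, those inside were in shep (2994 bp, signal 152), tna (2994 bp, 98.6) and Mnt (2975 bp, 223), and those outside in siz (3003 bp, 165), CG32066 (3004 bp, 230.0) and CG33181 (3017 bp, 77.7).

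**Figure D1:**
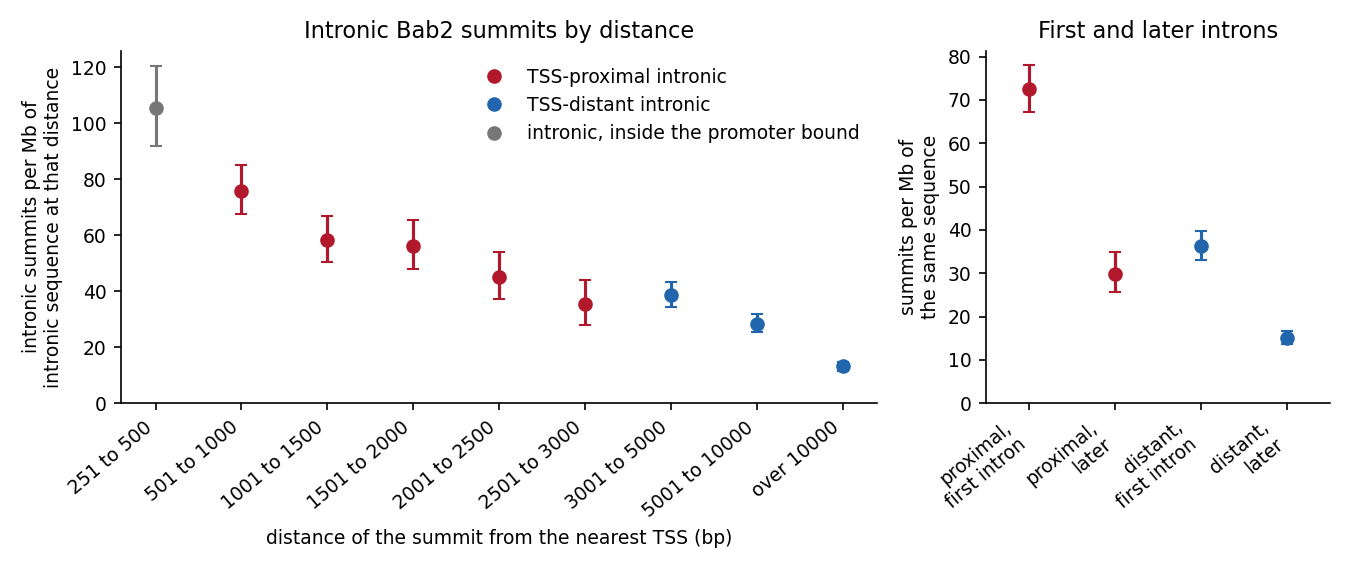
Left, intronic Bab2 summits per Mb of intronic sequence (y axis) by distance from the nearest TSS in bp (x axis), with exact Poisson 95% intervals as bars. Red points are the TSS-proximal intronic steps, which run down from 75.9 to 35.3 per Mb. Right, summits per Mb in first and later introns for TSS-proximal and then TSS-distant introns, where the first intron is higher in both classes.

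First introns carried most of these summits. Of the 864, 695 (80.4%, 77.7% to 82.9%) lay in the first intron of a transcript, a class that made up 62.9% of the same territory. Density was 72.5 per Mb (67.2 to 78.1) in first introns and 29.9 (25.6 to 34.8) in later ones. The TSS-distant introns were ordered in the same way at a lower level, with 36.2 per Mb in first introns and 15.1 in later ones. How far distance and intron order each account for the density was not tested. TSS-proximal later introns, at 29.9 per Mb, lay below TSS-distant first introns, at 36.2, although their intervals (25.6 to 34.8 and 33.0 to 39.6) overlap. The introns that held a summit had a median length of 5556 bp, with a range of 140 to 78340 bp. Where several annotated introns held the same summit, the shortest was taken.

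Density was similar on both sides of a TSS. Summits downstream of their nearest TSS made up 66.7% (576 of 864), against 67.6% of the territory. This gave 56.0 per Mb downstream (51.5 to 60.7) and 58.4 per Mb upstream (51.8 to 65.5). An upstream summit in an intron means an internal or neighbouring start site: 550 summits (63.7%) lay downstream of a TSS of the gene that held them, 223 (25.8%) upstream of an internal TSS of that gene, and 91 (10.5%) were nearest to the TSS of another gene. Of promoter summits, 17.9% lay downstream of the TSS, where 55.0% of promoter sequence lies.

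Among chromosome arms the X held 209 of these summits, or 69.5 per Mb (60.4 to 79.5), against 54.3 (50.2 to 58.7) over 2L, 2R, 3L and 3R, which ran between 49.3 (2L) and 57.2 (3R). TSS-distant introns were also denser on the X (29.2 per Mb) than on these arms (21.2). Promoter summits (136 on the X against 145) and intergenic summits (16.0 against 19.0) were not. Chromosome 4, small and largely heterochromatic, had 1 TSS-proximal intronic summit (5.53 per Mb). Annotated transposable elements held 3 summits (0.347%), although they make up 3.14% of the territory. The shortage was not particular to this class. These elements held 0.238% of TSS-distant intronic summits against 8.24% of their territory, and 0.318% of all optimal peaks against 5.93%. Repeated sequence is hard to map uniquely, and how much the mapping filter has to do with these counts was not tested.

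The peaks had about the same signal as the list as a whole. The authors' signal, an enrichment value per peak whose scaling the sources do not state, had a median of 129 (interval 123 to 135) over the 864 peaks. It was 118 (113 to 122) for TSS-distant intronic peaks, 135 (132 to 139) for promoter peaks and 128 over all 4720. In each replicate's own list TSS-proximal intronic peaks again lay between TSS-distant intronic and promoter peaks, and close to the list as a whole. In replicate 2 the medians were 58.5 (55.7 to 61.2) for TSS-proximal and 54.7 (53.2 to 57.1) for TSS-distant introns, with 60.9 for promoter peaks and 57.8 over all optimal peaks. In replicate 3 they were 70.4 (67.7 to 73.7) for TSS-proximal and 64.3 (62.1 to 67.4) for TSS-distant introns, with 75.5 for promoter peaks and 71.0 over all, so that TSS-proximal intronic peaks lay just above all peaks in replicate 2 and just below them in replicate 3. The top of the list separated the intronic classes further: 23 of 864 TSS-proximal intronic peaks (2.66%) were among the 100 strongest peaks, against 3 of 839 TSS-distant ones (0.358%) and 64 of 2190 promoter peaks (2.92%). The difference between the intronic classes was 2.30 percentage points (Newcombe interval 1.19 to 3.63), with 22 against 3 in replicate 2 and 22 against 2 in replicate 3. Within the class, signal was highest at 501 to 1000 bp (median 137, 128 to 145) and 119 (105 to 139) at 2500 to 3000 bp.

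Both replicates recovered the peaks. A summit within 200 bp was among the 4720 strongest peaks of each replicate for 679 of 864 (78.6%, 75.7% to 81.2%), against 79.1% of all optimal peaks. Since the optimal list was built from these same replicates, the share describes the list and is no separate support. In the full replicate lists, 860 were found in replicate 2 (27372 peaks) and 863 in replicate 3 (25804 peaks). Of the 859 found in both, Spearman's rho of the signals was 0.763, a description over peaks that share 2 libraries, and 647 (75.3%) were higher in replicate 3. Summits of the replicates lay a median of 22 bp apart, and 652 (75.9%) were within 50 bp. Intervals of 80 of the 864 peaks (9.26%) overlapped another peak of the list, so some neighbours share reads.

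**Figure D2:**
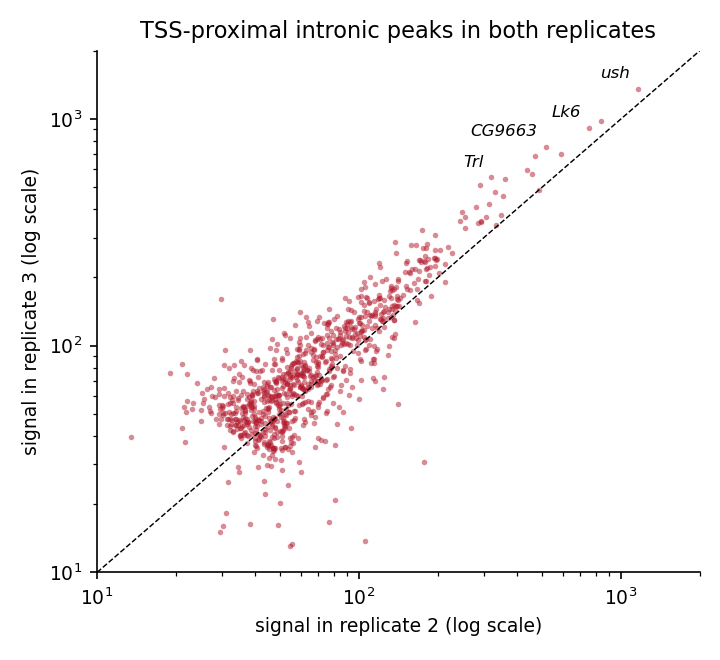
Signal of the TSS-proximal intronic peaks in replicate 3 (y axis) against replicate 2 (x axis), both on log scales. Each point is 1 of the 859 peaks found in both lists, the dashed line marks equal values, and 75.3% of points lie above it.

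The strongest TSS-proximal intronic peak was also the strongest of the whole list. It lay in the first intron of ush (u-shaped), which encodes a cofactor of GATA factors, at chr2L:480846-481317 and 1369 bp upstream of cbt (cabut), a zinc-finger factor. Its signal was 2524, with 1163 in replicate 2 and 1359 in replicate 3, rank 1 and rank 2 of those lists. The next was in CG11050 (chr2L:6612488-6612917), in an intron of 140 bp, with 1815 on both together, 839 in replicate 2 and 982 in replicate 3. Lk6, a kinase of the translation initiation factor eIF4E, had 1667 in its first intron (chr3R:11760845-11761252), with 757 in replicate 2 and 915 in replicate 3. These 3 peaks stood apart from the next one, at 1287.

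That next peak was in CG32772 on the X (591 in replicate 2 and 701 in replicate 3), followed by CG9663 at 1285 (517 and 754 in replicates 2 and 3) and Adf1, a DNA-binding protein first found at the Adh promoter, at 1160 (470 and 686). Tlk, the Tousled-like kinase of chromatin assembly, had 1034 (437 and 593), and CG3726 had 1031 (457 and 574). The gene cno (canoe), whose product links actin to adherens junctions, had 967 (488 and 485) and was the only one of the 20 strongest that was lower in replicate 3. Raf, the kinase downstream of Ras, had 904 (361 and 544), and Trl, which encodes the GAGA factor, had 868 (321 and 555).

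The other 9 of the 20 strongest ran from 812 to 650. They were in NFAT (a calcium-responsive type of transcription factor), CG9837, the overlapping HMG-box genes HmgZ and HmgD, CG31635, norpA (the phospholipase C of vision), LPCAT (a lysophospholipid acyltransferase), InR (the insulin receptor), wde (a cofactor of a histone methyltransferase) and Reph. The lowest rank of any of the 20 was 97 in the list of replicate 2 and 107 in that of replicate 3. Of the 20, 17 were in a first intron, 13 were downstream of their nearest TSS, 7 were on the X, and 13 had a promoter summit at the gene of that TSS as well.

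Summits of this class often came with others nearby. Another optimal summit lay within 1000 bp of 209 of the 864 (24.2%), against 114 of 839 TSS-distant intronic summits (13.6%, difference 10.6 percentage points, 6.91 to 14.3) and 19.0% of promoter summits. For 141 of these 209 the nearest other summit was of the same class, and for 56 it was a promoter summit. By the class rules a TSS-distant intronic summit cannot have a promoter summit within 1000 bp, so part of that difference was fixed in advance. For 76 of the 864 (8.80%) another summit lay within 250 bp, where peaks can share reads. The gene of the nearest TSS also had a promoter summit for 377 of 864 (43.6%, 40.36% to 46.96%), against 32.9% for TSS-distant intronic summits (difference 10.7, 6.13 to 15.3). Peaks with such a promoter summit had a median signal of 139 (128 to 152) and those without it 123 (118 to 131).

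At the level of genes, 670 protein-coding genes held at least 1 of the 864 summits. These are 7.27% of the 9216 eligible genes, those with any intronic base 501 to 3000 bp from a TSS. Of the 670, 510 held 1 summit, 109 held 2, 33 held 3 and 18 held at least 4, and 59 summits lay in overlapping genes and count for each. The share of genes holding a summit rose with territory. The holding genes had a median of 4098 bp of such sequence, against 440 bp over all eligible genes, and the share holding a summit was 0.248% for 1 to 500 bp, 5.81% up to 2000 bp, 15.9% up to 5000 bp and 33.1% above 5000 bp. Holding genes had a promoter summit more often, 270 of 670 (40.3%) against 1895 of 8546 (22.2%) of the other eligible genes. Within the genes of over 5000 bp of territory the shares were 47.7% (42.1% to 53.3%) and 24.9% (21.7% to 28.5%), and within 500 to 2000 bp they were 30.7% (22.98% to 39.7%) and 25.1% (23.1% to 27.1%), where the intervals overlap.

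CG1677 on the X held the most summits, 11, with signals of 91.0 to 247. For all 11 the nearest TSS was that of another gene in the same stretch: unc-119 for 3, CG42780 for 3, brk for 2, CBP for 2 and Dok for 1. Brinker, the product of brk, represses targets of the BMP ligand Dpp. Tlk held 8 (77.7 to 1034), Svil (supervillin, an actin-associated protein) 8 (76.3 to 334) and shn (schnurri, a zinc-finger partner of the BMP effectors Mad and Medea) 8 (78.2 to 224). CHES-1-like, a forkhead-box factor, held 6 of 138 to 437. The genes with 5 were ush (102 to 2524), NFAT (124 to 812), shep (an RNA-binding protein, 87.5 to 405), CG10543 (82.1 to 303) and CG13917 (86.8 to 284). The genes with 4 were CG14434, Src64B (a Src-family kinase), kirre (a cell adhesion protein of founder myoblasts), CG32264, Kdm2 (a histone demethylase), Mnt (a bHLH repressor of the Myc and Max network), CG43658 and px. In 9 of these 18 genes every summit was among the strongest of both replicates. CG10543 and Kdm2 reached 5 and 4 summits with 3000 and 2500 bp of territory, while kirre had 65808 bp. In CG10543 pairs of intervals overlapped, and the peaks of signal 303 and 130 had the same nearest peak in replicate 2, so their signals are not separate measurements there.

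**Figure D3:**
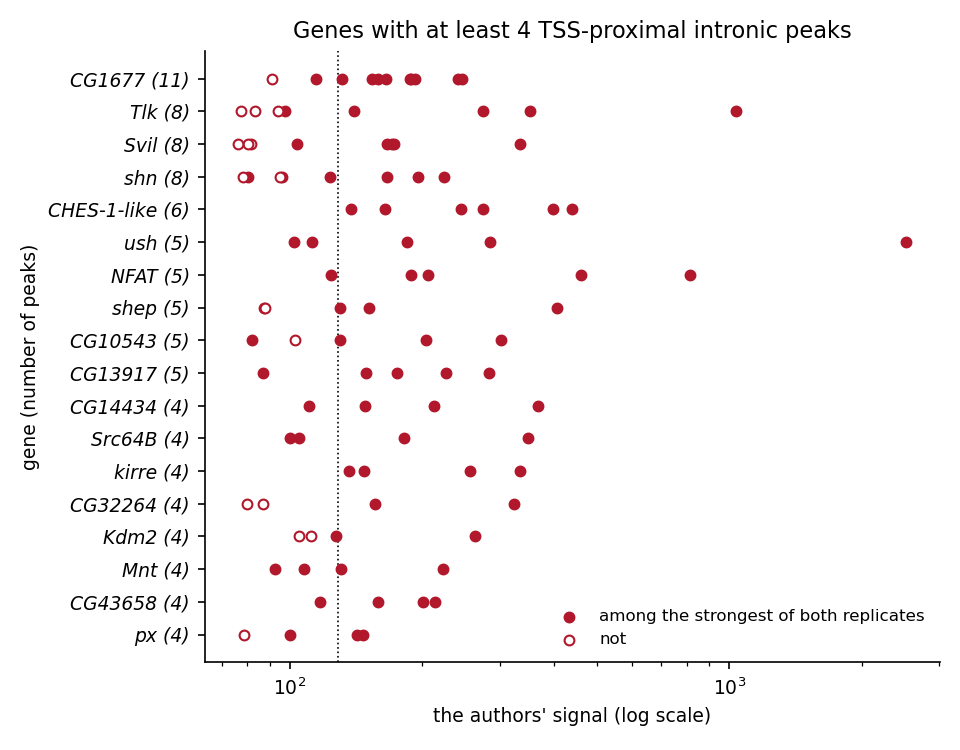
The authors' signal (x axis, log scale) of every TSS-proximal intronic peak in the 18 genes that held at least 4 (y axis, number of peaks in brackets). Filled points are peaks found among the strongest of both replicates, open points are not, and the dotted line is the median of all 864 peaks, 129. The signals within a gene spread over a wide range, most of all in ush (102 to 2524) and Tlk (77.7 to 1034).

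Lists of developmental and regulatory genes were then counted against the 7.27% of all eligible genes. Most lists hold long genes, so median territories are given with the counts, some as a range over several lists (440 bp over all eligible genes). For part of the lists the density per Mb of the list's own territory is set beside the 57.3 (53.7 to 61.1) over all eligible genes. Genes of the response to ecdysone, the moulting hormone, held a summit in 9 of 22 (40.9%, 23.3% to 61.3%, median territory 5198 bp), and in 22.7% both with an upper bound of 2000 bp and with the 2360 peaks of higher signal in the list. The strongest were in Eip63E, a cyclin-dependent kinase (signal 404), and ImpL2, a secreted binding protein of insulin-like peptides (401). The list's density, 81.3 per Mb (42.0 to 142), overlapped that of all genes. Genes of RNA binding and splicing had 10 of 26 (38.5%, 6864.5 bp; 20% with a lower bound of 1000 bp), led by mub (618) and the neuronal protein gene elav (351), at 67.1 per Mb. BTB and pipsqueak-type factors, the wider family of Bab2 itself, had 6 of 16 (37.5%, 5065 bp; 62.5% with an upper bound of 5000 bp), led by Trl (868) and rib (274), at 89.2 per Mb.

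Shares of signalling pathways ran from 15.8% to 33.3%, and the differences between lists were not tested. Wnt genes had 8 of 24 (33.3%, 16.7% with the 2360 peaks of higher signal), led by Notum (234), which inactivates Wnt ligands, and arr (153), a Wnt co-receptor. BMP and activin genes had 5 of 17, led by the effector Mad (463) and shn (224). EGFR and FGF genes had 7 of 27, led by Raf (904) and the ETS repressor gene aop (394). Hippo and planar polarity genes had 5 of 20 (kibra 203, crb 145), JAK-STAT genes 3 of 13 (Ptp61F 305, nearest to the TSS of ru, and Socs36E 142) and Hedgehog genes 3 of 13 (the receptor genes boi 199 and ptc 133). Notch genes had 3 of 19 (neur 176, bib 122) and insulin and growth genes 3 of 19 (Lk6 1667, InR 677), and for both the interval of the share, 5.52% to 37.6%, includes the 7.27% of all eligible genes. The Notch share was 5.26% with the 2360 peaks of higher signal and with an upper bound of 2000 bp. Median territories of these lists ran from 1044 to 2874.5 bp, against 440 bp over all eligible genes. By length, the lists other than BMP and activin did not stand apart from all eligible genes. Their densities ran from 55.2 (Notch) to 132 per Mb (Hedgehog). All their intervals overlap the 53.7 to 61.1 of all eligible genes, with lower ends from 11.4 (Notch) to 57.7 (EGFR and FGF).

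The densities per Mb of 4 lists lay above the interval of all eligible genes with their own whole interval. These were Polycomb and trithorax (269.5 per Mb, 135 to 482, 11 summits in 6 of 27 genes), BMP and activin (176, 93.5 to 300.4, 13 summits), GATA factors and cofactors (165, 66.2 to 339, 7 summits in 3 of 9 genes, or 1 of 9 genes, 11.1%, with the 2360 peaks of higher signal) and circadian genes and signalling kinases (120, 71.0 to 189, 18 summits in 8 of 28). Single genes held much of each count: Trl and kis held 3 each of the 11, shn 8 of the 13, ush 5 of the 7 and Tlk 8 of the 18. Median territories were 887 bp for Polycomb and trithorax, 2021 bp for BMP and activin, 2991 bp for GATA factors and 2854.5 bp for the last list. Beside Trl (868), the strongest Polycomb and trithorax summit was in ph-p (262), a subunit of Polycomb repressive complex 1. The other GATA summits were in grn (96.2) and GATAd (82.2). The last list was led by the kinase genes Tlk (1034) and Src64B (349), and its holding genes include cwo, a circadian repressor, and puc, a phosphatase.

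Densities of the lists of tissue structure, cell death and segmentation ran from 31.9 (segmentation and Hox) to 94.5 per Mb (actin and cell shape). All their intervals include the 57.3 of all eligible genes. Median territories ran from 1332 bp (cell death) to 3999 bp (neuroblast and neuronal fate). Axon guidance and adhesion genes had 9 of 34 (kirre 333, mbl 309), at 44.8 per Mb. Actin and cell shape genes had 9 of 33 (tsr, the fly cofilin, 270.3, and rhea, the fly talin, 188), at 94.5 per Mb (48.9 to 165). Muscle genes had 5 of 25 (mbl 309, mbc 214) and neuroblast and neuronal fate genes 4 of 21 (brat 435, elav 351). Cell death genes had 1 of 13, the caspase inhibitor gene Diap1 (255), and segmentation and Hox genes 1 of 23, Abd-B (82.7), with 0 without replicate 3 and with the 2360 peaks of higher signal.

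Of the 24 lists, 3 held none. Leg patterning and appendage genes, the textbook setting of Bab2, had 0 of 25 with a median territory of 2079 bp, which allows a share of up to 12%, so by share of genes the background cannot be told apart from 0. By length, the upper bound of their density, 43.7 per Mb, lay below the 57.3 of all eligible genes. With an upper bound of 5000 bp, 12% of these genes held a summit. Cytoplasmic ribosomal protein genes had 0 of 50 (up to 6%, 282.5 bp), although 53 of the 86 in the list had a promoter summit. Chemoreceptor genes had 0 of 136 (up to 2.21%, 172.5 bp), and cuticle families 1 of 35 (360 bp), Cpr73D (99.96), with 0 among the 2360 peaks of higher signal. Territory in the last 3 lists was short, and their densities (0, 0 and 24.3 per Mb) had upper bounds of 176, 75.8 and 135, which include the 57.3 of all genes.

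**Figure D4:**
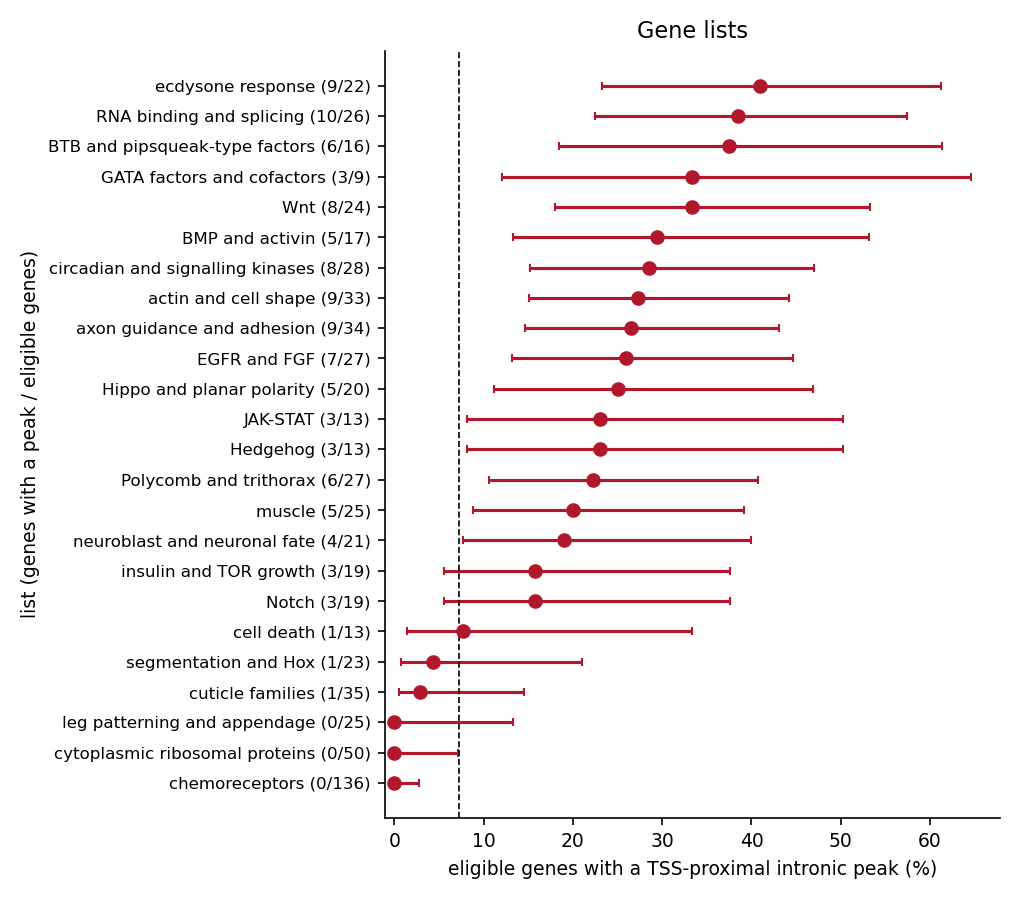
Share of eligible genes with a TSS-proximal intronic summit (x axis, percent) in 24 gene lists (y axis, holding over eligible genes in brackets), with Wilson 95% intervals. The dashed line is the 7.27% of all eligible genes, and the lists differ in intron length, as given in the text.

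The summits lay in a dip of GC content. In windows of 150 bp to either side the median was 37.9% at TSS-proximal intronic summits and 41.9% in like windows centred 500 bp away, and 246 of 864 (28.5%) were richer in GC than their own flanks. TSS-distant intronic summits had 38.2% and 41.5%, and promoter summits 37.2% and 45.7%. In windows of 50 bp to either side the median at TSS-proximal intronic summits was 33.7%, with shoulders of 43.6% at 200 and 300 bp on both sides, above the 40.6% at 1000 bp. TSS-distant introns had the same shape (33.7%, and 43.6% to 44.6% at 200 and 300 bp), while promoter summits rose without a shoulder to 46.5% at 500 bp.

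Six-base words, counted on either strand within 50 bp of the summit and in the 2 flanking windows of each peak, followed this composition. The 36 words without G or C had a median difference of 6.51 percentage points between summit and flank, the 192 words with a single G or C 3.30, and all 2080 words -0.35. The largest differences were for AAATAT (32.1% of summits against 18.2% of flanks), TTAAAA (28.1% against 15.5%), TAAATA (28.6% against 16.1%), TGTAAA (19.1% against 7.18%) and AAAATA (31.9% against 21.3%). TGTAAA was the only one of these 5 with a G. It was in 165 of 864 TSS-proximal intronic windows, against 14.7% of TSS-distant intronic ones (difference 4.44 points, 0.88 to 7.98) and 13.5% of promoter ones (5.63, 2.73 to 8.70). The word was picked for its excess at these same summits, which favours this class in the comparison. The rest of these 5 words differed from TSS-distant introns by 0.48 (AAAATA) to 2.01 points (TAAATA), with intervals that include 0. Peaks with it had a median signal of 135 (124 to 147) and those without it 127 (122 to 134).

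Among 20 motifs of known factors, the forkhead-type word TGTTTA was in 17.4% of TSS-proximal intronic windows and 12.6% of their flanks (difference 4.75 points, 1.85 to 7.80). It was more common still in TSS-distant intronic windows, at 22.1%. TAATAA was in 15.2% of summits against 11.0% of flanks, TATATA in 8.22% against 5.84%, and the GATA-type word AGATAA in 8.68% against 6.66%, where the interval of the difference includes 0. The differences of TAATAA (4.17 points) and TATATA (2.37) lay below the median of words without G or C, 6.51. Of words with a single G or C the median was 3.30, with AGATAA (2.03) below it and TGTTTA (4.75) above it. Peaks with TAATAA had a median signal of 147 (129 to 167), against 126 (121 to 133) without it. The GAGA factor word GAGAG went the other way, in 9.84% of summits and 17.5% of flanks (difference -7.64 points, -10.2 to -4.87). GCCATT of Pho (3.59% against 7.81%) and CACACA (8.56% against 12.7%) did so too. This was not particular to the class. GAGAG was in 9.89% against 14.0% at TSS-distant intronic summits and 9.50% against 13.0% at promoter summits. Over all optimal peaks GCCATT had 4.34% against 6.93% and CACACA 7.37% against 11.0%. TATCGATA, the DRE element of core promoters, was in 1 of 864 TSS-proximal intronic windows and 4.16% of promoter ones, and the M1BP word GGTCACAC in 0 of 864 (up to 0.347%) and 1.78%. CGATA was in 9.03% and 24.3%. A word match describes the letters of a window and says nothing on binding of the factor.

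The word ACAGTG was more frequent on either side of the summit than at it, and it had a direction. This pattern was found after the word counts had been seen. ACAGTG, on either strand, was in 10.6% of the windows at TSS-proximal intronic summits, in 13.8% and 13.7% of those 100 bp before and after it, and in 3.82% and 4.17% of those 500 bp away, so that the summit itself also lay above the level further out. In the stretch 26 to 150 bp from the summit, taken on both sides (1728 sides), ACAGTG read towards the summit was on 222 sides (12.8%, 11.4% to 14.5%) and ACAGTG read away from it on 77 (4.46%, 3.58% to 5.53%). In the same stretch 500 bp further out the counts were 51 and 77. By steps of 25 bp, the copies read towards the summit were most frequent at 76 to 125 bp, with 61 and 56 copies against 16 and 13 read away. The copies in the NFAT sequence printed above face the summit in the same way.

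Other words also had a direction beside the summit. GAGAAA was on 200 sides towards and 60 away, CAGTGG, which overlaps ACAGTG by 5 bases, on 171 and 53, and GAAAAA on 334 and 154. The direction was not particular to these introns. ACAGTG had 11.0% towards and 4.17% away at TSS-distant intronic summits, 7.65% and 3.45% at promoter summits and 7.73% and 4.37% at intergenic summits. Among the TSS-proximal intronic peaks, those with ACAGTG towards the summit on both sides (42 peaks) had a median signal of 197 (144 to 264), those with it on 1 side (138) 138 (122 to 149), and those with it on neither (684) 125 (120 to 132). In replicate 2 these medians were 83.3, 59.5 and 57.7, and in replicate 3 they were 114, 74.7 and 68.9. Summits are placed from reads, and reads were not analysed here, so whether the direction follows where reads start was not tested.

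**Figure D5:**
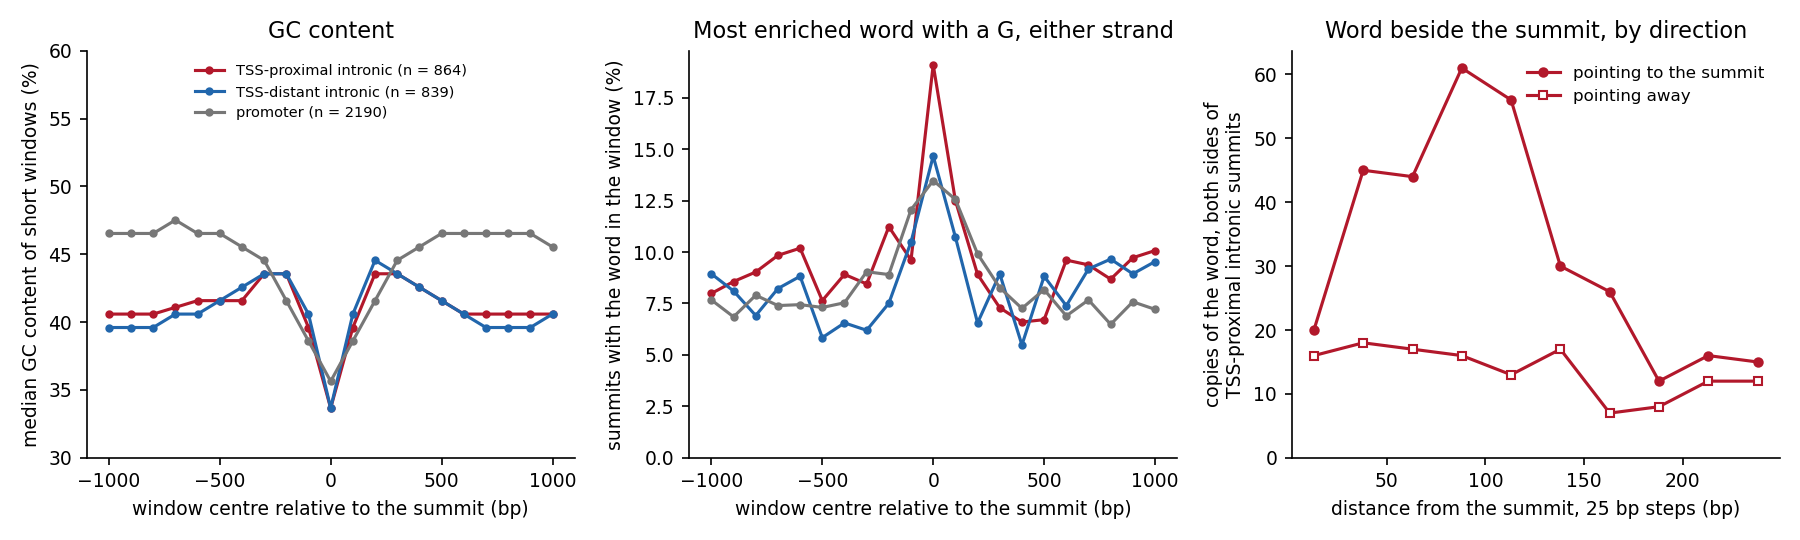
Left, median GC content of windows of 50 bp to either side (percent) by position relative to the summit, with the TSS-proximal intronic peaks in red, TSS-distant intronic peaks in blue and promoter peaks in grey. Middle, share of summits with TGTAAA on either strand in the window, which peaks at 19.1% in TSS-proximal introns. Right, copies of ACAGTG around the 864 TSS-proximal intronic summits by distance in bp, read towards the summit (filled) or away (open), with a rise to 61 towards the summit at 76 to 100 bp and no such rise away from it.

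Starts of non-coding genes were about as frequent near these summits as in the territory as a whole. An annotated non-coding gene started within 500 bp of 22 of 864 (2.55%, 1.69% to 3.83%), against 2.16% of the territory. At intergenic summits the share was 10.2%, against 3.61% of intergenic sequence. At TSS-distant intronic summits it was 2.74%, against 1.03% of their territory. The 22 comprised 1 snoRNA and 21 others, with 3 microRNA genes among them: mir-4962 in Tlk (17 bp from the summit, signal 140.4), mir-2491 in the overlapping genes fog and CG42346 (123 bp, 137) and mir-4974 in CG8671 (35 bp, 77.3). The strongest was next to lncRNA:CR46102 in LpR2, a lipophorin receptor gene (162 bp, signal 450.2).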

How the data were processed

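Depth, aligner and peak caller: not given in the sources used here. Per their deposited README texts, the authors called relaxed peak lists per replicate and on pooled reads against a control, and kept an optimal list by the irreproducible discovery rate procedure. Per the labels, chromatin was sonicated to 200 to 800 bp. The deposited values used are the signal, the −log10 q-value, which only describes the list, and another column, the authors' summit offset. The dm3 lists were not used.

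Positions were taken from the Ensembl release 115 annotation (FlyBase 6.54) and bases from the RefSeq release 6 sequence, which share the dm6 coordinates, with Python 3.11.15, numpy 2.4.6, pandas 2.3.3 and scipy 1.17.1. Territories were counted base by base, and the counting was tested on simulated data. Reads are not independent molecules where PCR copies them, so intervals cover counting error only, and a count of 0 allows up to 3 counts. Peaks, gene lists (526 names, 12 by older symbols, 6 unmatched), words and motifs were chosen with earlier results of these data known. Named were the 20 strongest peaks, genes with at least 4, the 2 strongest genes per list, 5 words and 3 peaks beside each bound; other names were chosen after their values were seen.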

Additional observations from a re-analysis of the deposited data

How the results depend on the processing

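Without replicate 2 or without replicate 3 (the 4720 strongest peaks of the remaining list), all 11 summary values kept within the interval of the reported value: the share of TSS-proximal intronic peaks ran from 18.4% to 18.7%, the density from 57.0 to 57.9 per Mb and first introns from 80.3% to 81.3%. Recovery is an unlike measure here, since it still used the other replicate. It was 78.0% for replicate 3 peaks found in replicate 2 and 77.3% for the reverse. ACAGTG towards the summit was on 10.5% of sides without replicate 3 and 13.4% without replicate 2, against 4.48% and 4.61% away, settings chosen after seeing the data. Among the 2360 peaks of higher signal, density was 28.8 per Mb, genes with a summit 4.07% and nearest genes with a promoter summit 31.4%, all lower by construction, since fewer peaks were kept. Recovery in both replicates was 99.8%, raised by construction, since stronger peaks were matched to the same 4720 strongest peaks of each replicate. Non-coding starts were 3.87%, for which the cause was not tested. With a lower bound of 250 bp the share was 22.9%, density 62.5, downstream summits 58.9% and promoter summits 54.9%, the last raised by construction, since the added summits are promoter summits themselves. With a lower bound of 1000 bp the share was 11.9%, density 49.97, recovery 75.6% and genes 6.35%. With an upper bound of 2000 bp the share was 14.1%, density 64.4 and genes 6.21%. With an upper bound of 5000 bp the share was 24.2%, density 50.9, first introns 77.1% and genes 8.60%. Recovery was 73.5% with summits within 100 bp and 98.3% with longer replicate lists, GC content 33.7% in windows of 50 bp to either side, and TGTTTA 30.4% in windows of 100 bp to either side. Shares of single gene lists that moved stand beside their counts. For the other values moved by the bounds the cause was not tested. The other 52 summary values moved by less than their interval. No paired analysis was possible because there is 1 group. Depth is unknown, so a weak peak cannot be told apart from none.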
